A study of Mus musculus with 8 samples.

Results

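The RNA levels of 9 genes of 2 chromatin marks were followed in the mouse heart over the first week after birth. They were the DNA methyltransferases Dnmt1, Dnmt3a and Dnmt3b, their cofactor Uhrf1, the methylcytosine dioxygenases Tet1, Tet2 and Tet3, and the histone methyltransferases Ezh1 and Ezh2. The 9 genes were set by name, as a family, with earlier results of these data known. Each symbol matched 1 of the 39614 loci that carry a gene symbol, out of 80155 loci in all, and all 9 passed the filter on low values.

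DNA methylation is laid down on unmarked CpG sites by Dnmt3a and Dnmt3b and is copied onto the new strand after replication by Dnmt1, which Uhrf1 brings to half-methylated sites. The Tet enzymes oxidize methylcytosine and so open a path to its removal. Ezh2 and its paralog Ezh1 are the alternative catalytic subunits of Polycomb repressive complex 2 (PRC2), which methylates lysine 27 of histone H3 (H3K27). Ezh2, Dnmt1 and Uhrf1 are known from dividing cells and Ezh1 from resting ones, and heart muscle cells largely stop dividing in the days covered here.

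RNA-seq was available for 4 hearts at postnatal day 1 (P1) and 4 hearts at postnatal day 7 (P7), all from male Hsd:ICR(CD-1) mice, an outbred stock, with no further treatment or genotype. Each heart came from its own animal, was sequenced as 1 library after ribosomal RNA had been depleted, and had lost its atrial appendages at harvest. The deposited unit was FPKM, the fragments of a locus per kilobase of its length, scaled to all mapped fragments of the library, so that levels of different genes can be set side by side. The tissue is a mixture, and fewer cells of a type and less RNA per cell cannot be told apart in it.

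The hearts carried the RNA of heart muscle. The summed FPKM of 7 cardiomyocyte markers, Myl2 among them, ranged from 17823 to 32535 at P1 and from 21961 to 34682 at P7, while of 4 skeletal muscle markers Actn3, Myh4 and Mybpc1 had means under 1 FPKM and Ckm, which heart muscle also makes, had 533 ± 321 and 828 ± 358 FPKM. A locus was called where limma gave a Benjamini-Hochberg adjusted p under 0.05 over all 43172 tested loci and mean FPKM differed by at least 1.5-fold. Of 17960 tested loci with a symbol 1462 were called, 1390 higher and 72 lower in P7, a split that moved to 1445 and 659 under median-ratio scaling and to 1385 and 596 under quantile normalization. The median log2 fold change of these loci was 0.19 as deposited and 0.01 under median-ratio scaling, and small changes in FPKM are to be read against that shift. One FPKM over 1 kb stood for about 14.7 to 23.0 fragments per heart. This put about 68 to 127 fragments behind each value of Dnmt3b and 212 or more behind those of the other 8 genes.

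The start regions are shown, as a description, for 5 genes to which the results below return. These are Dnmt1 and Uhrf1, whose levels moved together from heart to heart, the paralogs Ezh1 and Ezh2, and Tet3. Each window holds 250 bases before and 50 bases after an annotated start site of the gene (RefSeq, GRCm38.p6), and for genes with several windows the one with the most CpG is printed. Capitals mark the letters of a CCAAT box (CCAAT or ATTGG), a GC box (GGGCGG or CCGCCC) and an E2F site (TTTGGCGC or TTTCCCGC, or their reverse complements GCGCCAAA and GCGGGAAA). In Dnmt1 a CCAAT and an ATTGG overlap and appear as 1 run.
Dnmt1 (chr9:20952574-20952873, minus strand): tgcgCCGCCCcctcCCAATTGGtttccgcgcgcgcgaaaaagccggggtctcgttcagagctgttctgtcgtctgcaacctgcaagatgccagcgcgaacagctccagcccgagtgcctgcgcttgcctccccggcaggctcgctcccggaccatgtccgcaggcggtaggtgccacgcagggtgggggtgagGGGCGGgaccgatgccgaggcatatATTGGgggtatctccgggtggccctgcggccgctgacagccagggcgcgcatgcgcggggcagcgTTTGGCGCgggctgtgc
Uhrf1 (chr17:56304063-56304362, plus strand): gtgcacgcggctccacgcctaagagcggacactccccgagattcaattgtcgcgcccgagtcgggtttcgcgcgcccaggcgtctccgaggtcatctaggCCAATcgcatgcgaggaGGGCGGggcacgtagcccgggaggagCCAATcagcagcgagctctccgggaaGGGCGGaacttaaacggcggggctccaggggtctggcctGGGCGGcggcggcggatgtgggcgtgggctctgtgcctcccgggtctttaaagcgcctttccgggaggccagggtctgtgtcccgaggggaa
Ezh2 (chr6:47594981-47595280, minus strand): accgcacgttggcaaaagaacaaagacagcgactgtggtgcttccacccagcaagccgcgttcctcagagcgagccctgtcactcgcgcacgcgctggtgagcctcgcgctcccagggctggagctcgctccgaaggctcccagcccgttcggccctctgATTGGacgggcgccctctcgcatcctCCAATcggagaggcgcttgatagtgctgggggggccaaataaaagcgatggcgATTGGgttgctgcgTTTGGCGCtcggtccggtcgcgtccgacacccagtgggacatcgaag
Ezh1 (chr11:101226414-101226713, minus strand): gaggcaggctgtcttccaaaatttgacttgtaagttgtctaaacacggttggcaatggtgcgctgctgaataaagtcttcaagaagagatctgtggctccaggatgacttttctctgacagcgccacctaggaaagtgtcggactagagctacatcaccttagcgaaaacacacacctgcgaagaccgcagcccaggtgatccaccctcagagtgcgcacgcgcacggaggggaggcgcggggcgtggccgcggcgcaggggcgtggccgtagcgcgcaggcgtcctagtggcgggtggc
Tet3 (chr6:83441629-83441928, minus strand): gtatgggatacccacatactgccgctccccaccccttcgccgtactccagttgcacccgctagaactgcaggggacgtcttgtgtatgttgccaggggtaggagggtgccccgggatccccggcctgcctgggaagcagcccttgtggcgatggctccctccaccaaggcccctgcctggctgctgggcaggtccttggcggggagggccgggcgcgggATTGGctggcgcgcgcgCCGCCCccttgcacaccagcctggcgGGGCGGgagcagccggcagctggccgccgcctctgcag

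Among 32851 windows of the same length the E2F letters occurred in 1.56%, the CCAAT letters in 37.4% and the GC box letters in 35.7%. Of the 14 windows of the 9 genes, 1 of Dnmt1 and the only one of Ezh2 held TTTGGCGC, from bases 34 and 4 of the transcript. The next Dnmt1 window upstream of the printed one, chr9:20952930-20953229, held none of the letters searched. The other, chr9:20959839-20960138, held 5 CCAAT boxes and no E2F site or GC box. Which start site these hearts use was not tested. The printed window of Uhrf1 held 2 CCAAT and 3 GC boxes and that of Ezh1 held none of the letters searched. CpG dinucleotides numbered 33, 33, 31, 23 and 22 in the printed windows of Dnmt1, Uhrf1, Ezh2, Ezh1 and Tet3, against a median of 7 over all windows. The other windows of Dnmt1 held 2 and 12 and that of Uhrf1 held 12, so the choice of the richest window raises these counts. The windows with the most CpG among the 9 genes were those of Tet2, with 57, and Dnmt3a, with 47. The letters were chosen after these windows had been looked at, so the shares over all windows do not test the matches found here. A match of letters is a description of the sequence, and a window without one says only that these letters are not in it.

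Of the 9 genes, Tet3 alone was called, with more RNA in P7, against 8.14% of all tested loci with a symbol called in either direction and 7.74% called higher. A count of 1 in 9 lies near that background. Ezh1 and Dnmt3a had higher and Ezh2 lower mean FPKM in P7 without passing the test, and the remaining 5 differed by less than the spread between hearts. Tet3 was also the 1 gene whose hearts did not overlap between stages in FPKM as deposited, where 20.0% of loci with a symbol did not overlap, 17.3% with P7 above and 2.69% with P7 below P1.

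**Figure D1:**
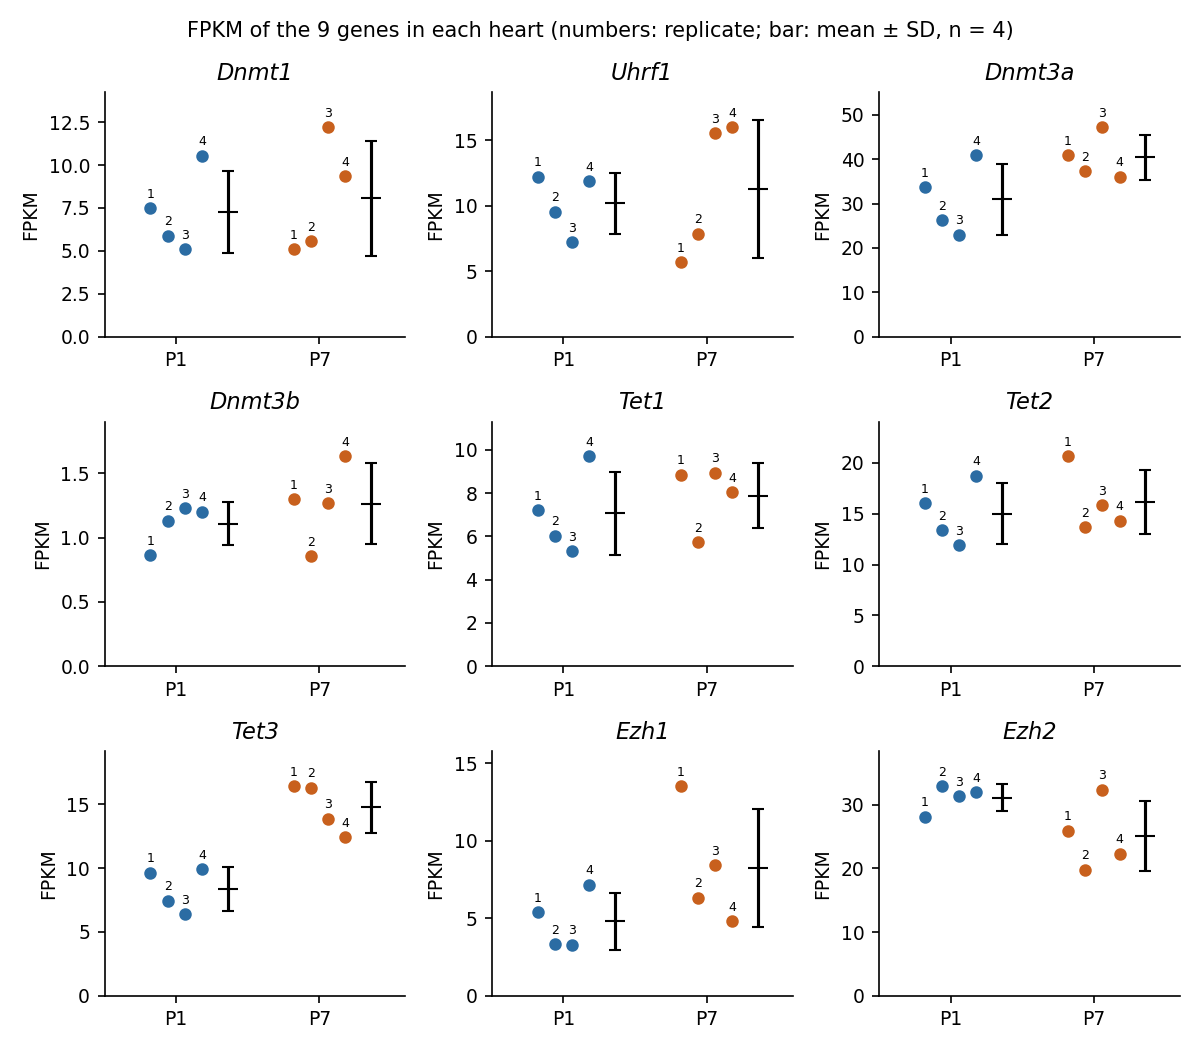
FPKM (vertical axes, from 0) of the 9 genes in 4 P1 (blue) and 4 P7 (orange) hearts; numbers give the replicate, and black bars the mean and SD. Tet3 lies between 6.37 and 9.92 in P1 and between 12.4 and 16.4 in P7, while in the other 8 panels the stages overlap.

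The 2 genes of maintenance methylation differed more between hearts of 1 stage than between the stages. Dnmt1 (chr9:20906572-20959888), the maintenance methyltransferase, stood at 7.50, 5.89, 5.10 and 10.5 FPKM in P1 replicates 1 to 4 and at 5.11, 5.57, 12.2 and 9.37 FPKM in P7 replicates 1 to 4. P7 replicates 1 and 2 thus lay at the low end of the P1 range and P7 replicate 3 above it. The mean of the 4 hearts was 7.26 ± 2.41 FPKM at P1 and 8.07 ± 3.36 FPKM at P7 (SD, n = 4 per stage), and the log2 fold change on log2(FPKM + 1) was 0.10 ± 0.28 (SE; 95% interval -0.50 to 0.71; limma adjusted p = 0.834).

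Uhrf1 (chr17:56303321-56323487), which reads half-methylated CpG and recruits Dnmt1, showed the same split within P7. Its FPKM was 12.2, 9.53, 7.20 and 11.9 in the P1 hearts and 5.68, 7.86, 15.5 and 16.0 in the P7 hearts, in replicate order. The 4 P7 values bracketed the P1 values, with replicates 1 and 2 low and replicates 3 and 4 above every P1 heart. The log2 fold change was 0.05 ± 0.30 (95% interval -0.61 to 0.70; limma adjusted p = 0.935). The sign of both changes turned negative under median-ratio scaling, quantile normalization and GC correction, so neither gene has a direction here.

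Dnmt1 and Uhrf1 varied together over the hearts. Pearson's r of log2(FPKM + 1) between Dnmt1 and Uhrf1 was 0.894 over 8 hearts, the highest of any pair among the 9 genes. The points share a library and its scaling, and the value is a description. Their ratio stayed within 1.12 to 1.62 in P1 and 1.11 to 1.70 in P7, so Uhrf1 was above Dnmt1 in 8 of 8 hearts. By the same measure the loci most like Dnmt1 among 8099 candidates were Stip1, Slmo2 and Ddx39 (r = 0.984 to 0.983), and those most like Uhrf1 were Atic, Ranbp1 and Ccne1 (r = 0.972 to 0.952). Ccne1 encodes cyclin E1, which drives entry into S phase.

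Genes of DNA replication followed the same hearts. Summed over 20 replication genes (the Mcm helicase, primase, polymerase and nucleotide synthesis genes, and S phase cyclins), FPKM was 237, 206, 187 and 280 in P1 and 126, 145, 274 and 231 in P7. P7 replicates 1 and 2 lay below every P1 heart, and P7 replicates 3 and 4 within the P1 range. Over 14 mitosis genes the sums were 229, 190, 202 and 264 in P1 and 176, 154, 348 and 289 in P7, with P7 replicates 3 and 4 above every P1 heart. None of the 20 or 14 genes was called in either direction, with a median log2 fold change of -0.26 for replication and 0.06 for mitosis genes. Rrm1, Pola1 and Prim1 were called lower under median-ratio scaling and quantile normalization, as was Top2a. The Dnmt1 to Mki67 ratio, with Mki67 as a marker of cycling cells, ranged from 0.514 to 0.668 at P1 and from 0.516 to 0.818 at P7 (exact permutation test, p = 0.2; adjusted over 10 ratios p = 0.4). What moved the 2 P7 pairs apart was not tested.

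**Figure D2:**
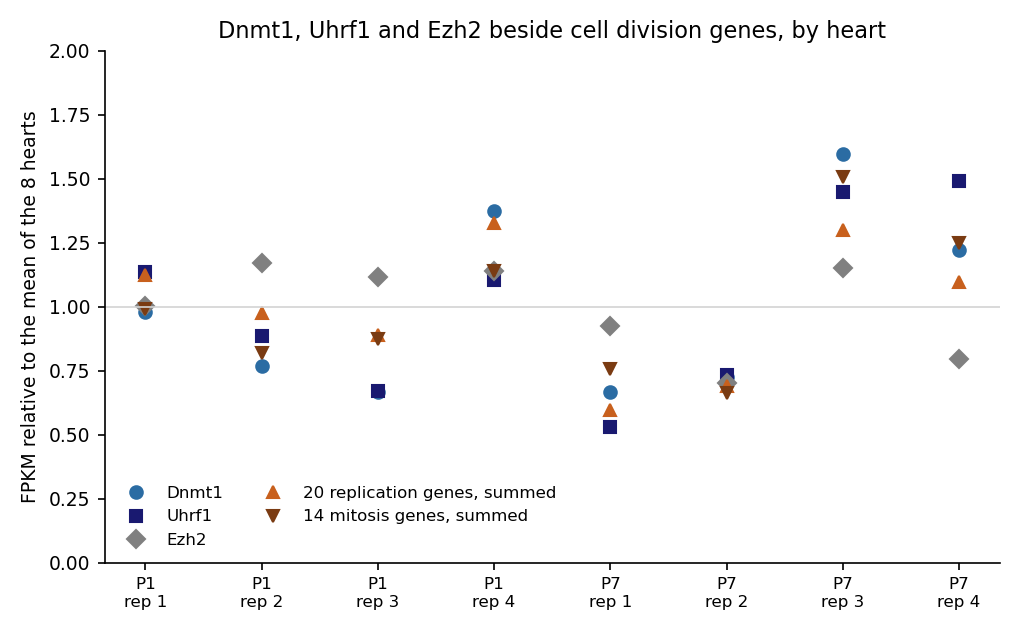
FPKM of Dnmt1, Uhrf1 and Ezh2 and the summed FPKM of 20 replication and 14 mitosis genes, each divided by its mean over 8 hearts (vertical axis); the horizontal axis gives the heart. Dnmt1, Uhrf1 and both sums are low in P7 replicates 1 and 2 and high in P7 replicates 3 and 4, whereas Ezh2 is below its mean in P7 replicates 1, 2 and 4.

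Other genes of maintenance methylation did not pass the test. Of 8 tested partners 0 were called, at a median log2 fold change of -0.15 against 0.19 over all loci with a symbol, and Dppa3 and Dnmt3l, listed at 0 in some hearts, were under the filter. Hells, a chromatin remodeler needed for DNA methylation, was 20.4, 20.4, 19.6 and 16.1 FPKM in P1 and 6.13, 10.4, 15.1 and 14.9 FPKM in P7. All P7 hearts lay under the P1 range, at a log2 fold change of -0.74 ± 0.25 (limma adjusted p = 0.14), and Hells is named here after its values were seen. Pcna, the replication clamp that Dnmt1 binds, stood at 63.2 ± 9.4 FPKM in P1 and 61.2 ± 24.1 in P7, Usp7 at 34.5 ± 9.0 and 31.9 ± 6.0, and Trim28 at 23.2 ± 9.9 and 37.2 ± 8.4. Uhrf2, the paralog of Uhrf1, had 24.0 ± 6.3 and 23.2 ± 5.8 FPKM.

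RNA of the de novo methyltransferases was mostly Dnmt3a. Dnmt3a (chr12:3806007-3915832) had 33.7, 26.3, 23.0 and 41.0 FPKM in the P1 hearts and 40.9, 37.4, 47.3 and 36.1 FPKM in the P7 hearts. P1 replicates 1, 2 and 3 lay below the P7 range and P1 replicate 4 inside it. The mean was 31.0 ± 8.0 FPKM at P1 and 40.4 ± 5.0 FPKM at P7, a log2 fold change of 0.40 ± 0.21 (95% interval -0.06 to 0.85; limma adjusted p = 0.331). The log2 fold change was 0.16 under median-ratio scaling and 0.13 under quantile normalization, and 0.54 without P1 replicate 4 (adjusted p = 0.102).

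Dnmt3b (chr2:153648690-153687730), the other de novo enzyme, was the lowest of the 9 genes in 8 of 8 hearts. Its FPKM was 0.862, 1.13, 1.23 and 1.20 in P1 and 1.30, 0.856, 1.27 and 1.63 in P7, and the stages overlapped. The log2 fold change was 0.10 ± 0.19 (95% interval -0.31 to 0.50; limma adjusted p = 0.762), and its sign turned under median-ratio scaling and GC correction. With 0.1 added to each FPKM, which lowers the ratio for a gene this low, Dnmt3a exceeded Dnmt3b 17.4- to 35.1-fold in P1 and 20.9- to 39.2-fold in P7 hearts. Dnmt3a made up 78.8 ± 1.0% of the summed Dnmt FPKM in P1 and 81.6 ± 5.0% in P7. That share was 86.5% and 85.3% in P7 replicates 1 and 2, the hearts with little Dnmt1, and 77.8% and 76.7% in P7 replicates 3 and 4. Both loci overlap an annotated antisense transcript, Dnmt3aos and Dnmt3bos. Whether strand was used in counting is not given in the sources used here, so reads of the pairs cannot be told apart. The loci most like Dnmt3a over the 8 hearts were Ccdc59, Gstz1 and Phrf1 (r = 0.994 to 0.992), and those most like Dnmt3b were Ccdc45, Eya3 and Acn9 (r = 0.913 to 0.849).

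Of the 3 Tet genes 1 was called, Tet3, with more RNA in P7. Tet3 (chr6:83360658-83456441) had 9.64, 7.45, 6.37 and 9.92 FPKM in P1 replicates 1 to 4 and 16.4, 16.3, 13.9 and 12.4 FPKM in P7 replicates 1 to 4. The lowest P7 heart was above the highest P1 heart. The mean rose 1.77-fold, from 8.35 ± 1.72 to 14.8 ± 1.96 FPKM, a log2 fold change of 0.76 ± 0.19 (95% interval 0.34 to 1.19; limma adjusted p = 0.0487; exact permutation test on FPKM, two-sided, p = 0.0286, the smallest that 4 against 4 hearts allow). The limma adjusted p lay just under the threshold and was above it in 14 of 18 alternatives (range 0.0166 to 0.26), among them median-ratio scaling (log2 fold change 0.54, adjusted p = 0.0606), GC correction (0.59, adjusted p = 0.146) and leaving out any heart other than P1 replicate 4 (adjusted p = 0.0847 to 0.175). The P7 hearts stayed above the P1 hearts under median-ratio scaling, quantile normalization and GC correction.

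Tet1 and Tet2 were not called. Tet1 (chr10:62804153-62899118) had 7.21, 6.04, 5.33 and 9.70 FPKM in P1 and 8.85, 5.73, 8.95 and 8.04 FPKM in P7. Tet2 (chr3:133462336-133544390) had 16.1, 13.4, 11.9 and 18.7 FPKM in P1 and 20.6, 13.7, 15.9 and 14.3 FPKM in P7. The stages overlapped for both genes, with P1 replicate 4 the highest of all 8 hearts for Tet1 and P7 replicate 1 for Tet2. Their log2 fold changes were 0.15 ± 0.22 (95% interval -0.31 to 0.62; limma adjusted p = 0.675) and 0.10 ± 0.20 (95% interval -0.34 to 0.54; limma adjusted p = 0.78), and both signs turned under median-ratio scaling and quantile normalization. After GC correction they were larger, 0.38 for Tet1 (adjusted p = 0.371) and 0.28 for Tet2 (adjusted p = 0.449), against 0.59 for Tet3.

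Set within each heart, where a scale factor of the library cancels, the shares of Tet2 and Tet3 in the Tet RNA did not overlap between the stages. Tet3 held 29.3%, 27.7%, 27.01% and 25.9% of the summed Tet FPKM in P1 and 35.8%, 45.6%, 35.8% and 35.7% in P7. Tet2 held 48.8%, 49.8%, 50.4% and 48.9% in P1 and 44.9%, 38.3%, 41.0% and 41.2% in P7. The lowest P7 share of Tet3 was above the highest P1 share, and the reverse held for Tet2. From P1 to P7 the mean Tet3 share differed by 10.8 percentage points and the Tet2 share by -8.12 (exact permutation tests, p = 0.0286 each, adjusted over 7 sums and shares p = 0.1). These shares were chosen after the values were seen. The Tet2 to Tet3 ratio went from 1.79 (1.66 to 1.88) to 1.09 (0.84 to 1.25) and the Tet1 to Tet3 ratio from 0.841 (0.75 to 0.978) to 0.534 (0.356 to 0.65), without overlap (exact permutation tests, p = 0.0286 each, adjusted over 10 ratios p = 0.0952). The adjusted values are above 0.05, and with 4 hearts a stage no p under 0.0286 was possible. The shares of a heart add up to the whole and both ratios contain Tet3, so these tests are not separate evidence. Mean Tet2 FPKM as deposited was 15.0 in P1 and 16.1 in P7. Under the alternatives the Tet2 share kept its sign, with a weaker test in 4 and the same result in 5. The Tet3 share kept its result in 9.

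The longest Tet3 transcript has 53.5% GC, against 43.7% for Tet1 and 45.4% for Tet2 and a median of 49.2% over loci. After GC correction the stages differed by 4.53 percentage points in the Tet3 share and by -4.57 in the Tet2 share, with the hearts still apart (exact permutation tests, p = 0.0286 each). The Tet1 to Tet3 ratio then overlapped between the stages, at 0.661 to 0.871 in P1 and 0.441 to 0.771 in P7, while the Tet2 to Tet3 ratio, at 1.51 to 1.68 and 1.00 to 1.36, did not. The Tet3 locus contains all of B230319C09Rik on the opposite strand, and 5430434F05Rik and Mir6374 on its own strand. Reads of these cannot be told apart from those of Tet3. The loci most like Tet3 over the 8 hearts were Zfp362, Bckdha and Dlgap4 (r = 0.997 to 0.991), for Tet1 Kbtbd2, Pgrmc1 and Bmp2k (r = 0.991 to 0.988), and for Tet2 Jmy, 1200011I18Rik and Btbd3 (r = 0.986 to 0.98). Bckdha encodes a subunit of the enzyme that breaks down branched-chain keto acids.

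**Figure D3:**
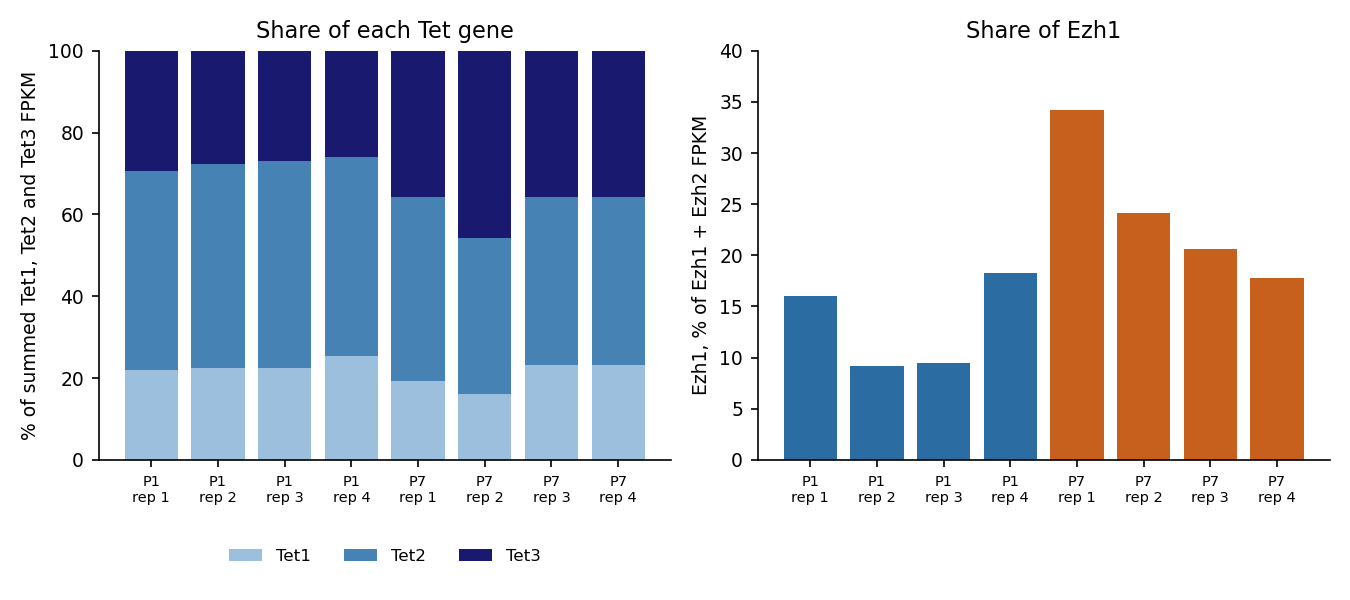
Left, the share (percent) of Tet1, Tet2 and Tet3 in their summed FPKM for each heart; right, Ezh1 as a percent of Ezh1 + Ezh2 FPKM in P1 (blue) and P7 (orange) hearts. Tet3 fills 25.9% to 29.3% of the bar in P1 and 35.7% to 45.6% in P7, and Ezh1 9.14% to 18.3% in P1 and 17.7% to 34.3% in P7.

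Partners of demethylation, a list that also holds Gadd45 and base excision repair genes, included 3 called genes of 12 tested. All 3 were higher in P7, where 7.74% of loci with a symbol were called higher. Cxxc5, a CXXC protein of unmethylated CpG DNA, had 14.9, 12.6, 10.8 and 15.5 FPKM in P1 and 30.6, 24.3, 33.6 and 28.7 FPKM in P7 (log2 fold change 1.07 ± 0.19; limma adjusted p = 0.0142). Gadd45a, a stress-induced protein linked to active demethylation, rose from 2.56 ± 0.58 to 6.50 ± 2.12 FPKM (adjusted p = 0.0295), and Xrcc1, a scaffold of base excision repair, from 4.86 ± 2.08 to 10.8 ± 1.8 FPKM (adjusted p = 0.0362). For all 3 the P7 hearts lay entirely above the P1 hearts. Gadd45a alone of them was called after GC correction and Cxxc5 alone without a filter on low values. Tdg, the glycosylase that removes oxidized methylcytosine, was 6.09 ± 1.90 and 5.92 ± 1.33 FPKM. Among the others Idh2, which makes the Tet cosubstrate 2-oxoglutarate in mitochondria, stood at 307 ± 130 and 459 ± 98 FPKM, and Ogt, which binds Tet proteins, at 45.0 ± 7.9 and 44.1 ± 8.1. Cxxc4 was the 1 gene of the list whose P7 hearts all lay below the P1 hearts, with 2.14 ± 0.17 and 1.50 ± 0.33 FPKM (adjusted p = 0.332). The list's median log2 fold change was 0.34.

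Proteins that read methylated CpG had 1 called gene of 10, where 8.14% of all tested loci with a symbol were called. Zbtb4, a zinc finger repressor that binds methylated DNA, was 8.45, 7.45, 6.41 and 8.74 FPKM in P1 and 18.2, 13.6, 18.5 and 12.8 FPKM in P7, a ratio of 2.03 (limma adjusted p = 0.0233) with no overlap. That call was lost after GC correction and without a filter. Mbd2 had 43.5 ± 6.9 and 59.5 ± 11.5 FPKM, Mbd5 26.4 ± 2.9 and 32.0 ± 3.9, and Mbd3, of the NuRD complex, 17.0 ± 6.2 and 32.9 ± 9.0 (adjusted p = 0.103). The median log2 fold change of the list was 0.28.

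Supply of the methyl group was measured through 15 tested genes of the methyl donor cycle, of which Gamt was called. Over all tested loci with a symbol 8.14% were called. Gamt, which makes creatine with S-adenosylmethionine, went from 4.29 ± 1.37 to 9.83 ± 1.91 FPKM (limma adjusted p = 0.0241), a call lost after GC correction and without a filter. The Gamt symbol is carried by 2 loci. Mat2a, which makes S-adenosylmethionine, was 82.6, 83.0, 75.1 and 86.1 FPKM in P1 and 54.0, 58.4, 83.9 and 65.5 FPKM in P7 (adjusted p = 0.365), with P7 replicate 3 inside the P1 range. The other abundant genes, Mat2b, Ahcyl1 and Shmt2, had adjusted p values of 0.772, 0.436 and 0.232. The median log2 fold change was -0.05.

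The catalytic subunits of PRC2 were not called, with mean FPKM higher in P7 for Ezh1 and lower for Ezh2. Ezh1 (chr11:101191115-101226463) had 5.38, 3.32, 3.30 and 7.17 FPKM in P1 and 13.5, 6.31, 8.40 and 4.82 FPKM in P7. P7 replicate 1 was far above the rest, P7 replicate 3 was above the P1 range, and P7 replicates 2 and 4 lay within it. Mean FPKM was 4.79 ± 1.86 in P1 and 8.26 ± 3.81 in P7, a ratio of 1.73, and the log2 fold change was 0.65 ± 0.30 (95% interval 0.00 to 1.29; limma adjusted p = 0.267). Without P7 replicate 1 it was 0.40, at a ratio of 1.36. The locus most like Ezh1 was Pln, phospholamban, the inhibitor of the calcium pump of heart muscle (r = 0.989), followed by Pdcd4 and Cdk19 (both r = 0.975).

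Ezh2 (chr6:47529946-47595341) had 28.2, 33.0, 31.4 and 32.0 FPKM in P1 and 26.0, 19.8, 32.4 and 22.3 FPKM in P7. P7 replicates 1, 2 and 4 were below every P1 heart and P7 replicate 3 lay inside the narrow P1 range. The means were 31.1 ± 2.1 and 25.1 ± 5.5 FPKM, a log2 fold change of -0.32 ± 0.19 (95% interval -0.74 to 0.10; limma adjusted p = 0.383). Its change depended on the scaling. Under median-ratio scaling Ezh2 was called lower in P7 (log2 fold change -0.56, adjusted p = 0.0451) with scaled values of 27.6 to 39.1 in P1 and 21.0 to 25.5 in P7, as it was under quantile normalization (-0.57, adjusted p = 0.0291). After GC correction the difference shrank (-0.11, exact permutation test on FPKM, p = 0.571), and the longest Ezh2 transcript has 44.4% GC. The locus also holds Gm26625 and the pseudogene Gm44282 on the opposite strand. The loci most like Ezh2 were Prorsd1, Gm14584 and Ahcyl1 (r = 0.977 to 0.953).

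**Figure D4:**
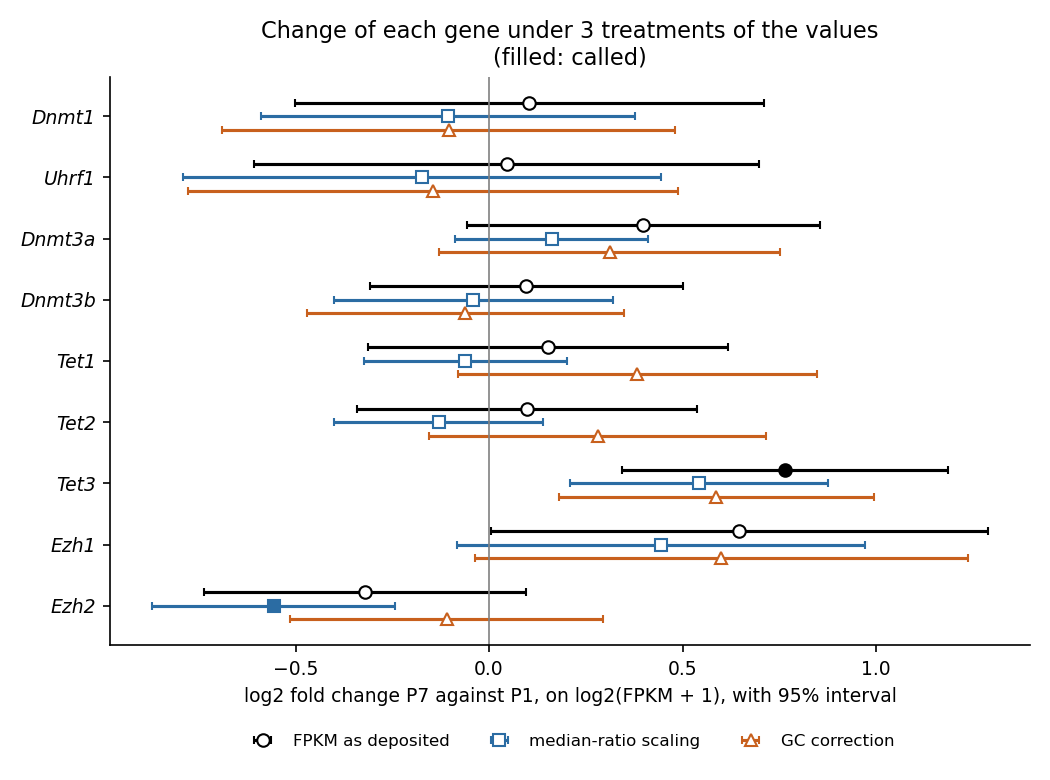
Log2 fold change of P7 against P1 on log2(FPKM + 1) (horizontal axis) with 95% intervals for the 9 genes, from FPKM as deposited (circles), after median-ratio scaling (squares) and after GC correction (triangles); filled symbols are called. The interval of Tet3 lies above 0 in all 3. Ezh2 is below 0 in all 3, but its interval excludes 0 only after median-ratio scaling. Ezh1 and Dnmt3a are above 0 in all 3, and of their intervals only that of Ezh1 as deposited excludes 0, barely. The intervals of Dnmt1, Uhrf1, Dnmt3b, Tet1 and Tet2 span 0, and a filled symbol appears once for Tet3 and once for Ezh2.

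Within hearts Ezh1 was 16.0%, 9.14%, 9.52% and 18.3% of the summed Ezh FPKM in P1 and 34.3%, 24.2%, 20.6% and 17.7% in P7, so that 3 P7 hearts exceeded every P1 heart and P7 replicate 4 did not. The share differed by 10.9 percentage points (exact permutation test, p = 0.0571, adjusted over 7 sums and shares p = 0.133). The Ezh1 to Ezh2 ratio had a geometric mean of 0.149 in P1 and 0.314 in P7 (exact permutation test, p = 0.0571, adjusted over 10 ratios p = 0.143). Ezh2 relative to Eed, the PRC2 subunit that binds methylated H3K27, went from 2.04 (1.88 to 2.24) to 1.41 (0.918 to 1.86) without overlap (exact permutation test, p = 0.0286, adjusted over 10 ratios p = 0.0952), the P7 range ending just under the P1 range. Relative to Mki67, Ezh2 ranged from 1.79 to 3.11 at P1 and from 1.67 to 2.87 at P7 (exact permutation test, p = 0.457, adjusted over 10 ratios p = 0.571).

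Of 9 other PRC2 genes 1 was called, where 8.14% of all tested loci with a symbol were called. Phf1, a Polycomb-like subunit that reads methylated H3K36, was 5.996, 4.55, 5.77 and 3.86 FPKM in P1 and 11.9, 11.0, 9.37 and 9.05 FPKM in P7 (ratio 2.05; limma adjusted p = 0.0234), a call lost under median-ratio scaling, quantile normalization and GC correction. The histone-binding subunits Rbbp7 and Rbbp4 stood at 79.6 ± 18.8 and 38.4 ± 7.5 FPKM in P1 and 68.3 ± 12.9 and 41.1 ± 6.7 in P7. Aebp2 had 38.8 ± 8.5 and 37.1 ± 8.9, and Jarid2, an accessory subunit known from heart development, 25.8 ± 7.8 and 40.3 ± 10.1 FPKM (adjusted p = 0.186). The core subunits Eed and Suz12 had adjusted p values of 0.544 and 0.533. The median log2 fold change of the list was 0.10 and turned to -0.14 under median-ratio scaling. Of the H3K27 demethylases, Kdm6a had 13.3 ± 1.7 and 13.8 ± 3.4 FPKM and Kdm6b 5.31 ± 0.89 and 7.16 ± 1.61, and 0 of 2 were called.

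Polycomb repressive complex 1 (PRC1), which binds the H3K27 mark and ubiquitinates histone H2A, had 3 called genes of 18, all higher in P7, against 7.74% of loci with a symbol. Ring1, a catalytic subunit, went from 2.15 ± 0.79 to 4.97 ± 0.72 FPKM (limma adjusted p = 0.0328), and Phc2 from 10.6 ± 1.5 to 18.3 ± 1.6 FPKM (adjusted p = 0.0371). Cbx6 went from 18.4 ± 3.6 to 33.0 ± 3.0 FPKM (adjusted p = 0.0357), at a locus whose reads are shared with Nptxr. In 8 of the 18 genes the P7 hearts lay entirely above the P1 hearts, where 17.3% of loci with a symbol showed this, and the median log2 fold change was 0.44. Rnf2, the other catalytic subunit, had 28.0 ± 3.4 and 26.5 ± 5.4 FPKM, and Bmi1 48.8 ± 8.8 and 65.3 ± 13.2 (adjusted p = 0.318). None of the 18 was called after GC correction or without a filter, and Ring1 alone with eBayes without trend. Under median-ratio scaling the 3 called were Ring1, Cbx6 and Cbx2, and Phc2 was not among them. The called share was 25% for the demethylation partners, 16.7% for PRC1, 11.1% for PRC2, 10% for the methyl-CpG readers and 6.67% for the methyl donor cycle. It was 0% in the remaining lists, cell markers aside, against 8.14% of all tested loci with a symbol. Calls in all the lists together numbered 9. They fell to 0 without P1 replicate 2, P1 replicate 3, P7 replicate 1 or P7 replicate 3, to 2 without P1 replicate 1 or P7 replicate 4 and to 3 without P7 replicate 2, and went up to 14 without P1 replicate 4.

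**Figure D5:**
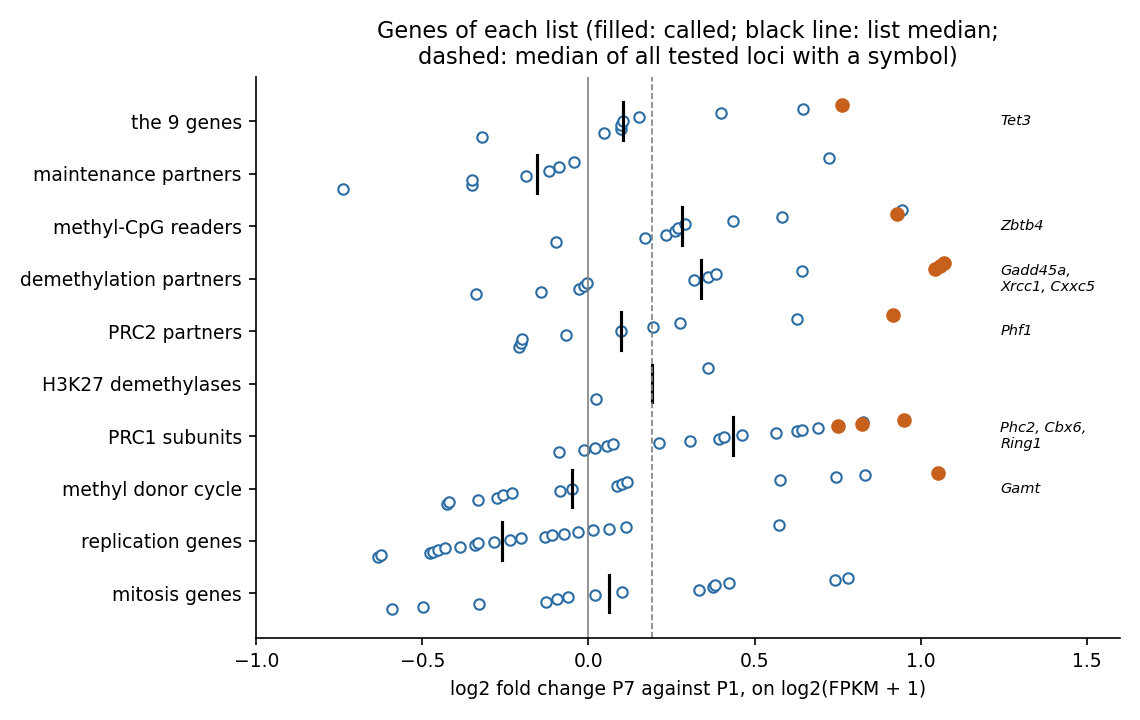
Log2 fold change of P7 against P1 (horizontal axis) for the tested genes of each list; filled points are called and named at the right, black lines mark list medians, and the dashed line marks the median of all tested loci with a symbol, 0.19. The called points, 1 of the 9 genes and 9 of the other lists, all lie to the right; the replication genes have the lowest list median, -0.26.

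Most genes that these marks are known to hold silent were under the filter and not tested, and those tested were not called. Of 10 germline genes kept off by DNA methylation 1 reached the filter, at the strongest of 5 loci that carry the symbol Sycp3 (chr10:88452745-88504073). This locus had 5.57 ± 0.89 FPKM in P1 and 5.91 ± 1.02 in P7. Whether its reads come from Sycp3 itself was not tested. Of 14 H3K27me3 targets 4 were tested and 0 called. Cdkn1c, an imprinted inhibitor of the cell cycle, was 24.6, 21.1, 19.4 and 33.3 FPKM in P1 and 43.0, 37.6, 47.8 and 35.0 FPKM in P7, with all P7 hearts above the P1 range (log2 fold change 0.73 ± 0.21; limma adjusted p = 0.075). Wt1 had 4.41 ± 1.08 and 6.68 ± 1.91 FPKM.

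Ordered by mean FPKM over 8 hearts, the 9 genes stood as Dnmt3a (35.7 ± 8.0), Ezh2 (28.1 ± 5.0), Tet2 (15.6 ± 2.9), Tet3 (11.6 ± 3.8), Uhrf1 (10.7 ± 3.8), Dnmt1 (7.66 ± 2.74), Tet1 (7.48 ± 1.65), Ezh1 (6.53 ± 3.34) and Dnmt3b (1.18 ± 0.25). The neighbours Ezh2 and Tet2, Uhrf1 and Dnmt1, and Ezh1 and Dnmt3b kept their order in 8 of 8 hearts. Tet2 was above Tet3 in 7 of 8, with P7 replicate 2 the exception, and Dnmt3a above Ezh2 in 6 of 8. Uhrf1 was above Tet3 in 4 of 4 P1 hearts and in 2 of 4 P7 hearts, against the order of their means over 8 hearts. Dnmt1 and Tet1, in the order of their means in 2 of 4 hearts at each stage, could not be ordered. In the P1 hearts Ezh1 was the eighth of the 9 genes throughout, and in P7 replicates 1 and 2 it was the fifth and the sixth.

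Markers of other heart cells also differed between the stages, and their part in the results above was not tested. Of 5 fibroblast markers 3 were called higher in P7 (Col1a1, Dcn and Tcf21), where 7.74% of all tested loci with a symbol were called higher. The summed FPKM of the 5 ranged from 557 to 1035 at P1 and from 931 to 1162 at P7. The 5 leukocyte markers summed to 24.8 to 28.9 and 46.0 to 66.4 FPKM, with Lyz2 called. Of 5 endothelial markers Cdh5 was called higher (sums 86.02 to 142 and 108 to 170), while Emcn had 29.2 ± 2.3 and 21.7 ± 3.9 FPKM with every P7 heart below every P1 heart (adjusted p = 0.244). Of 4 smooth muscle and pericyte markers Pdgfrb was called higher (sums 266 to 552 and 214 to 328), while Acta2 had 281 ± 116 and 148 ± 47 FPKM, again with every P7 heart lower (adjusted p = 0.126). None of the 5 red cell, 3 epicardial or 4 Schwann cell markers, of which Sox10 was under the filter, was called, with sums over all of them of 315 to 961 and 920 to 1222, 8.47 to 19.3 and 11.96 to 20.03, and 2.81 to 5.07 and 2.49 to 8.44 FPKM. Of 7 cardiomyocyte markers 0 were called, and Actn3 and Myh4 were at 0 in some hearts.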

How the data were processed

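Reads had been aligned by the authors' provider to GRCm38 with the annotation of Ensembl 70 and summed over features. The aligner and its version are not given in the sources used here. The deposited values are FPKM, 1 column per heart, and no fragment counts. The 9 genes, the gene lists and the ratios were chosen with earlier results of these data known, and the within-family shares after the values were seen. The promoter motifs were chosen after the values and the promoter windows had been looked at.

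Symbols were matched ignoring case, joined symbols were split, and of several loci the one with the highest mean FPKM was used. Loci that reached 1 FPKM in any heart were compared on log2(FPKM + 1) with limma 3.58.1 (R 4.3.3; lmFit, and eBayes with a trend on the mean), all 8 hearts in the fit and no covariate. A log2 fold change on this scale understates the change of low genes. FPKM, ratios (pseudocount 0.1) and shares were compared with two-sided exact permutation tests over all 70 assignments of hearts. Intervals are limma's 95% intervals. Fragments per FPKM were estimated from the steps of FPKM in short loci without a symbol, of which 98.3% to 99.3% came out within 0.1 of a whole number, with lengths of the longest GENCODE M21 transcripts. They are approximate and cover counting error only.

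Named were the 9 genes, the called genes of each list with at most 4 others of the highest mean FPKM, and for each of the 9 genes the 3 loci with 1 symbol and mean FPKM of at least 5 with the highest Pearson r over 8 hearts. Genes outside this rule were Hells, Tdg, Cxxc4, Cbx2, Eed, Suz12 and Mki67, and Ckm, Emcn and Acta2 among the markers, which were chosen after their values were seen. In the replication list 2 of 22 symbols matched no locus, and 1 gene of the lists is not reported here.

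Alternatives were quantile normalization, median-ratio scaling over loci with a symbol, a lower pseudocount (0.1), 1 FPKM in every heart or no filter at all, weights for the quality of each library, the replicate number as a blocking factor, eBayes with no trend, correction for transcript GC content (known for 85.9% of tested loci with a symbol; loess span 0.3), and each heart left out. In simulated data with 200 loci changed 4-fold 189 were recovered with 5 false calls, with 200 changed 2-fold 20 were recovered with 1 false call, and with none changed 0 were called. In that setting, with 200 of 43172 loci changed, most 2-fold changes were missed. In the data 1650 loci were called, which eases the adjusted threshold, so the recovered share does not carry over to them. Python 3.11.15, pandas 2.3.3, numpy 2.4.6, scipy 1.17.1 and matplotlib 3.10.9 were used.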

Additional observations from a re-analysis of the deposited data

Results flagged for a closer look

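Single hearts stood apart from the other 3 of their stage, by Dixon's test, in 2 of 52 groups of 4 values (FPKM, ratios and shares of the 9 genes), where chance gives about 2.6. The log2 ratio of Dnmt3a to Dnmt1 was 1.949 in P1 replicate 4 and 2.141 to 2.154 in the other P1 hearts, the gap being 0.937 of the range. Tet3 was 45.65% of the summed Tet FPKM in P7 replicate 2 and 35.7% to 35.84% in the other P7 hearts, a gap of 0.985 of the range. Without P7 replicate 2 the Tet3 share remained higher in P7, by 8.31 percentage points.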

How the results depend on the processing

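Tet3 was the 1 gene of the 9 called, and 0 were called without a filter, with the replicate number as a block, with eBayes without trend, and after GC correction with or without the block (without 1 heart, 0 to 1). Its log2 fold change was 0.76 without a filter and with the replicate block (adjusted p = 0.0989), 0.54 under median-ratio scaling, 0.51 under quantile normalization, 0.76 without trend and 0.59 after GC correction with or without the block, and 0.66 to 0.84 without 1 heart. Ezh2 became called lower at -0.56 and -0.57 under median-ratio scaling and quantile normalization. Signs turned for Dnmt1 (median-ratio -0.11, quantile -0.15, GC correction -0.10 with or without block, without 1 heart -0.10 to 0.28), Uhrf1 (-0.17, -0.21, -0.14 and -0.15 to 0.30), Tet2 (-0.13, -0.15, without 1 heart -0.020 to 0.20), Tet1 (-0.061, -0.10) and Dnmt3b (median-ratio -0.041, GC correction -0.062 with or without block). After GC correction the log2 ratios of Dnmt1 and Uhrf1 to Mki67 differed by -0.14 and -0.19, and Uhrf1 to Dnmt1 by -0.19 to 0.024 without 1 heart. Genes whose hearts did not overlap numbered 1, and 2 with Ezh2 under median-ratio scaling and quantile normalization and without P7 replicate 3, with Dnmt3a without P1 replicate 4 and with Dnmt3b without P7 replicate 2. Of the list genes 9 were called, against 1 without a filter, 17 with the filter on every heart (fewer loci tested), 15 with quality weights, 1 after GC correction with or without the block, and 0 to 14 without 1 heart. None of 10 ratios passed adjustment under any alternative. The cause of these shifts was not tested.

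Called loci with a symbol numbered 1462, against 231 without a filter, 2573 with the filter on every heart, 2104 under median-ratio scaling, 2951 with quality weights, 941 without trend, 413 after GC correction, 385 with the block added, and 25 (without P1 replicate 2) to 2640 (without P1 replicate 4). Replicate numbers did not pair the hearts: deviations from stage means correlated at -0.10 to 0.12 for equal and -0.16 to 0.10 for unequal numbers, and the block left 1052 loci and 0 of the 18 PRC1 genes called. Fragment depth limits Dnmt3b most.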
